A study of Mus musculus with 6 samples.

Results

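The WNT ligands, their Frizzled receptors and the secreted proteins that block them were followed in mouse ovarian granulosa cells with and without the transcription factor genes Foxo1 and Foxo3. Genes were taken by symbol in the platform annotation, as every Wnt and Fzd gene with a number together with Sfrp1 to Sfrp5, Dkk1 to Dkk4, Wif1, Frzb, Lrp5, Lrp6, Axin2 and Lef1. This gave 44 genes of 18193 measured, carried by 85 of 45037 probe sets, and each gene was read from its brightest probe set over the arrays. They comprise 19 WNT ligands, 10 Frizzleds, 2 LRP co-receptors, 10 secreted antagonists and the 2 target and effector genes Axin2 and Lef1. Fzd10os also fits the rule by name, although it is an opposite-strand transcript at Fzd10 and not a receptor.

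Granulosa cells were profiled on 6 Affymetrix arrays, 2 for each of 3 groups. Wild-type and double knockout cells were both taken at day 25, and double knockout cells also at 2 months, all on a mixed FVB and C57BL/6 strain background. Each knockout, labelled Foxo1/3 dKO, had a floxed allele opposite a null allele at both Foxo1 and Foxo3 (f/- for each) together with Amhr2-cre, a recombinase expressed from the anti-Müllerian hormone receptor locus, so the null alleles are also present in cells that never express Cre. The labels call the controls wild type and do not mention floxed alleles or Cre in them. Wild-type cells at 2 months were not analysed here, so in the 2-month comparison with wild type genotype and age cannot be told apart.

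WNT proteins are lipid-modified signals that act over short distances. In the canonical branch a ligand joins a Frizzled to LRP5 or LRP6, beta-catenin is spared from destruction, and it enters the nucleus to act with TCF and LEF factors. SFRPs, FRZB and WIF1 bind the ligands, while DKK proteins such as DKK1 block the LRP co-receptors. In the ovary Wnt4 is needed for normal female gonad development and contributes to follicle growth, Fzd4 is needed for a functional corpus luteum, and Sfrp4 is known from luteal cells.

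The arrays were checked before the family was examined. Foxo1 intensity lay between 7666 and 10319 in wild type, between 904 and 2291 in day 25 dKO and between 126 and 343 in 2-month dKO, while Foxo3 was higher on all dKO arrays, at 1632 and 1342 in wild type, 2539 and 3279 in day 25 dKO and 2484 and 1872 at 2 months. A loss of Foxo3 was thus not seen on this probe set, and dKO is used here as the label gives it. Which part of each gene is removed is not given in the labels, so a probe set outside that part would check nothing. Of 15 granulosa markers 14 were measured and all lay above the Y-linked genes, with Foxl2 between 6165 and 13167. The 3 Y-linked genes, which female cells lack, gave 7 to 18 on 9 probe sets and mark the intensity of a probe set with no target. Replicate 1 of the 2-month dKO stood apart: across probe sets its r with the remaining arrays was 0.964 to 0.979, and all other pairs were at 0.982 to 0.993. Summed leukocyte markers were 1479 and 2888 in wild type, 7528 and 4145 in day 25 dKO, and 13934 and 4458 in 2-month dKO, and Itgam alone of the 10 stayed in the Y-linked range. Summed endothelial markers ran from 1010 to 1236, 1285 to 1902 and 2011 to 3920 in the same order, and stromal markers from 18153 to 25981, 31272 to 38691 and 28761 to 52122. Oocyte markers summed to 31512 and 18918 in wild type, 44644 and 66520 in day 25 dKO, and 5612 and 35114 at 2 months. In such mixed RNA, fewer cells of a type and less RNA per cell cannot be told apart.

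Not every family member gave a usable signal. Wif1 was 9 on every array, and Dkk1, Wnt3 and Wnt8a also never left the Y-linked range, so 4 of 44 members stayed within it throughout. Others lay at its edge, such as Dkk2 at 12 to 19, Wnt16 at 16 to 19 and Wnt10a at 17 to 20. A value just above the range therefore does not show that a gene was detected. A further 15 stayed under 100 on all arrays, among them the canonical ligands Wnt1, Wnt10a and Wnt10b, the antagonists Sfrp2 and Dkk2, and the receptors Fzd9 and Fzd10. Of the 19 ligands 10 were under 100 throughout, against 2 of 10 Frizzleds. The ligands that reached 100 on at least 1 array were Wnt3a, Wnt4, Wnt5a, Wnt5b, Wnt6, Wnt7a, Wnt7b, Wnt9a and Wnt11. Among the antagonists, Dkk3, Frzb, Sfrp1 and Sfrp4 did so. Intensities of different probe sets also depend on the probes, so these levels do not rank the genes by transcript number.

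Among the ligands, Wnt4 was lowest in the 2-month dKO. Its intensity in wild type was 902 and 1646, against 504 and 1363 in day 25 dKO and 351 and 415 in 2-month dKO. Both 2-month arrays lay below the 4 others, and the day 25 groups overlapped because each held 1 low and 1 high array. A second Wnt4 probe set gave 541 and 833, then 246 and 649, then 227 and 230, with the same arrays high and low. Wnt5a, a ligand of the beta-catenin-independent branch, ran in the opposite order. Its values were 61 and 55 in wild type, 78 and 149 in day 25 dKO, and 126 and 156 in 2-month dKO, so all dKO arrays were above both wild-type arrays. Wnt5a's next brightest probe sets, at 17 to 60 and 21 to 34, had their highest values on the 2-month arrays, and the dimmest stayed between 16 and 18.

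Wnt6 gave 214 and 239 in wild type, 228 and 402 in day 25 dKO, and 416 and 482 in 2-month dKO. The 2-month arrays were again separate from wild type, while the day 25 dKO held 1 array at the wild-type level and 1 near the 2-month level. A second Wnt6 probe set gave 79 and 102, then 77 and 161, then 150 and 146, with its highest value on day 25 dKO replicate 2. Wnt5b was 164 and 171 in wild type, 273 and 125 in day 25 dKO, and 78 and 149 at 2 months. The dKO replicates differed at both ages, and only the 2-month and wild-type arrays did not overlap. Wnt9a, given here after its values were seen, was 59 and 60, then 73 and 124, then 115 and 81. All dKO arrays exceeded wild type for Wnt9a. Wnt2 was 27 and 24, then 27 and 25, then 38 and 24, with overlapping groups in every comparison, and Wnt11 ran from 77 to 139.

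**Figure D1:**
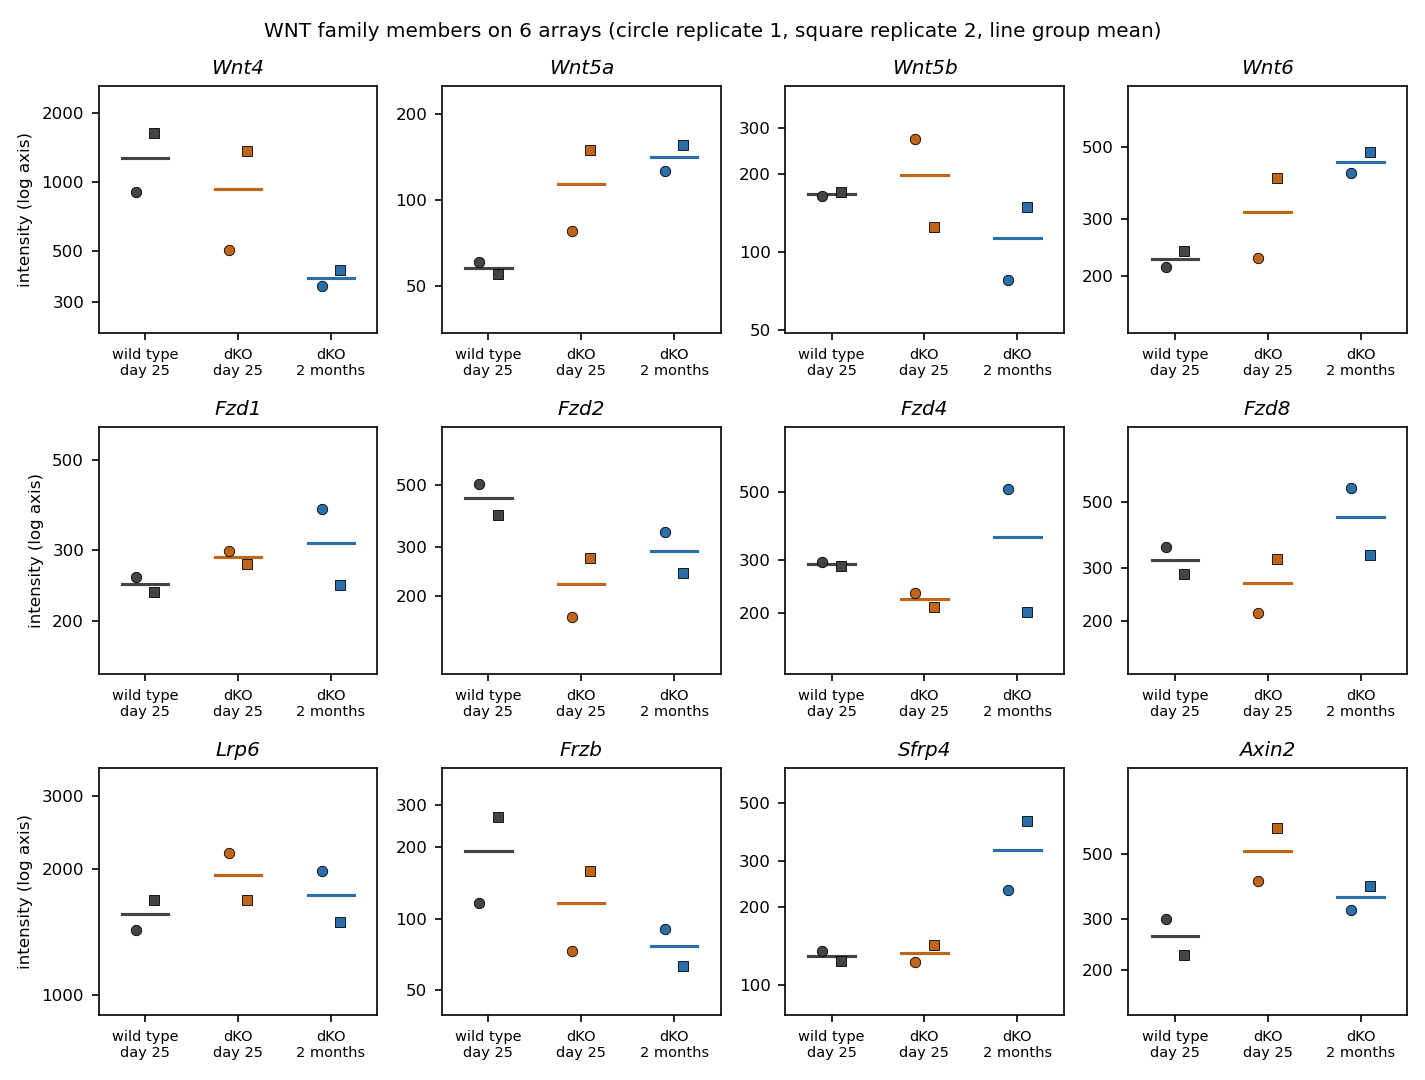
Intensity (log axis) of 12 WNT family members on the 6 arrays, with 1 panel a gene, circles for replicate 1, squares for replicate 2 and a line at each group mean. Wnt4 is at 351 and 415 in 2-month dKO against 902 and 1646 in wild type, Sfrp4 is at 233 and 426 against 135 and 124, and Axin2 is at 406 and 618 in day 25 dKO against 301 and 225 in wild type.

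The sequences upstream of 4 of these genes are shown because the text turns on their levels and forkhead and TCF/LEF factors are the nuclear ends of the pathways concerned. Each line gives the 250 bases before the RefSeq gene start on GRCm38.p6, read along the gene. Capitals mark a match, on either strand, to the TCF/LEF core CTTTGA or the forkhead core GTAAACA, which do not overlap each other. Wnt4 lies at chr4:137277385-137277634 on the plus strand, Wnt6 at chr1:74771642-74771891 on the plus strand, Frzb, the secreted antagonist described further on, at chr2:80447397-80447646 on the minus strand, and Axin2 at chr11:108920099-108920348 on the plus strand.
Wnt4: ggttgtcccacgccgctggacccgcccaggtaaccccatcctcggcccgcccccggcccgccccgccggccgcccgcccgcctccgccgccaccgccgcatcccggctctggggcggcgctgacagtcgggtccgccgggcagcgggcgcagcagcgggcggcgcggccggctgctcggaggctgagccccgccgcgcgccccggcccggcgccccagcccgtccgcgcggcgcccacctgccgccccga
Wnt6: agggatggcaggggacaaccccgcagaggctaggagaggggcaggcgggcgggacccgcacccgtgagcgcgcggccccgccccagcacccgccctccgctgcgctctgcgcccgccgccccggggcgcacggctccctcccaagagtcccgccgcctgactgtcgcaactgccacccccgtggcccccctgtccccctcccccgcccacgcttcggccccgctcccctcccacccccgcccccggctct
Frzb: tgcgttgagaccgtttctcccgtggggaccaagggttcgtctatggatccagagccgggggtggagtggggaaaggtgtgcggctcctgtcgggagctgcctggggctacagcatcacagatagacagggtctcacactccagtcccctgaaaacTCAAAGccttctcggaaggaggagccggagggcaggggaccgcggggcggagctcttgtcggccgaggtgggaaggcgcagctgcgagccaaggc
Axin2: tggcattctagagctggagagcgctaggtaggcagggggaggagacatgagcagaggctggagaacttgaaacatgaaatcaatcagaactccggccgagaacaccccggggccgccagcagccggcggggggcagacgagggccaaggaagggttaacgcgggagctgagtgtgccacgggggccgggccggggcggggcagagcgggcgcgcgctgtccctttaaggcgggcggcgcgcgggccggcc

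These windows are rich in G and C, at 85.2% for Wnt4, 79.6% for Wnt6, 69.2% for Axin2 and 64.4% for Frzb, against a median of 52.4% over 32851 RefSeq windows of this length. They hold 44, 28, 24 and 16 CpG dinucleotides in that order, against a median of 6. Frzb has the TCF/LEF core once, on the strand opposite the gene, from base -95 to -90 before the start, and the other 3 windows do not hold its letters. Over all windows 13.83% hold this core and 3.17% hold the forkhead core. The 29 members with a window have 35 windows, since some genes have more than 1. Of these 35 windows 6 hold the TCF/LEF core, in the 6 genes Dkk1, Frzb, Fzd1, Lef1, Wnt11 and Wnt5b, and 0 hold the forkhead core. A match to these letters is a description and not a bound site.

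Of 10 Frizzleds 8 reached 100 on at least 1 array, and Fzd2 differed most from wild type at day 25. Its brightest probe set gave 508 and 392 in wild type, 167 and 274 in day 25 dKO, and 340 and 241 in 2-month dKO, with both wild-type arrays above the 4 dKO arrays. The other Fzd2 probe sets gave 383 and 318 against 152 and 241, and 278 and 193 against 113 and 210, at day 25. In the dimmest of the 3 the day 25 groups overlapped and the 2-month mean lay above wild type, against the other 2. Fzd3, with a mean of 1390.5 ± 121 in wild type, 1102 ± 11.3 in day 25 dKO and 1053 ± 296 at 2 months (SD, n = 2), also had both wild-type arrays on top. Its 4 brightest probe sets had lower dKO means at both ages.

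Fzd4 and Fzd8 turned on a single array. Fzd4 was 294 and 287 in wild type, 234 and 210 in day 25 dKO, and 512 and 202 at 2 months, so replicate 1 of the 2-month dKO was the highest array and replicate 2 the lowest. A second Fzd4 probe set, at 102 and 94, 66 and 70, and 167 and 67, ran the same way. Fzd8 was 353 and 286, then 212 and 321, then 557 and 333, and its second probe set was 160 on 2-month replicate 1 and between 48 and 73 elsewhere. Endothelial and leukocyte markers were also highest on that array, at sums of 3920 and 13934 against 2011 and 4458 on replicate 2. Summed stromal, theca and surface epithelium markers peaked there too, at 52122, 46969 and 5303, as did 28.9% of all genes. Summed granulosa, oocyte and luteal markers did not. The part of these cells in the receptor values was not tested. Fzd1 was 257 and 236, then 298 and 277, then 378 and 245, close together but for 2-month replicate 1. Fzd10, a dim receptor, was 58 and 63, then 55 and 58, then 68 and 74. Fzd5, Fzd6 and Fzd7 ran from 287 to 532, from 298 to 600 and from 522 to 910, with the wild-type replicates of Fzd5 and Fzd6 over 1.5-fold apart.

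The co-receptors, which pair with Frizzleds in canonical signalling, had overlapping groups in every comparison on their brightest probe sets. Lrp5 was 144 and 158 in wild type, 153 and 149 in day 25 dKO, and 123 and 175 at 2 months. Lrp6 gave 1428 and 1693, then 2194 and 1693, then 1981 and 1498 on its brightest probe set. Its second probe set, at 312 and 220, 199 and 157, and 248 and 179, was lower in the dKO where the brightest was higher, so the direction for Lrp6 depends on the probe set in all 3 comparisons. On that second probe set both day 25 dKO arrays lay below both wild-type arrays.

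**Figure D2:**
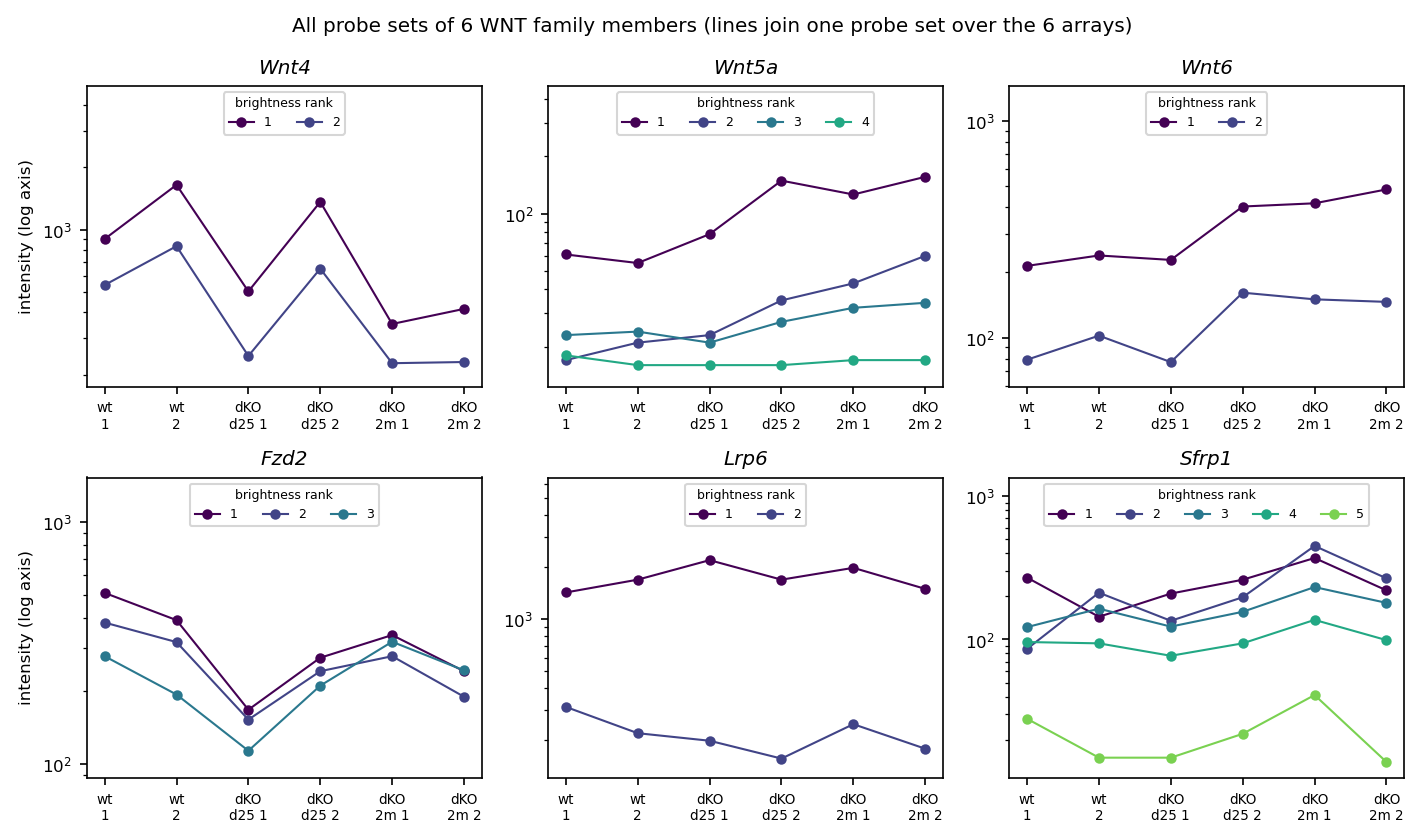
Intensity (log axis) of every probe set of 6 genes on the 6 arrays, each line joining 1 probe set and numbered by brightness. The 2 Wnt4 probe sets run in parallel from 902 and 541 on wild-type replicate 1 to 415 and 230 on 2-month replicate 2, whereas the brightest Lrp6 probe set is highest on day 25 dKO replicate 1 (2194) and the dimmer one is not (199).

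Of the secreted antagonists, Sfrp4 differed most at 2 months. It was 135 and 124 in wild type, 123 and 143 in day 25 dKO, and 233 and 426 in 2-month dKO. Both 2-month arrays were above the 4 arrays of day 25, which lay close together. Frzb, also called SFRP3, was 116 and 268 in wild type, 73 and 159 in day 25 dKO, and 90 and 63 at 2 months. The 2-month arrays were below both wild-type arrays but overlapped the day 25 dKO, and the wild-type replicates were over 1.5-fold apart. A dim second Frzb probe set gave 17 and 25 in wild type against 12 to 14 on all dKO arrays, and only the 25 lay outside the Y-linked range.

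Sfrp1, which binds WNT ligands outside the cell, was measured by 5 probe sets, and all 5 had their highest value on 2-month replicate 1. Its brightest gave 270 and 144 in wild type, 209 and 261 in day 25 dKO, and 370 and 220 at 2 months, while the next gave 86 and 212, 135 and 197, and 449 and 267. The wild-type replicates thus stood in opposite order on these probe sets. Dkk3 ran from 110 to 198 with overlapping groups. Sfrp2 was 18 and 17, then 18 and 18, then 22 and 23, and Dkk2 was 13 and 12, then 16 and 14, then 19 and 17. Both are within a few units of the Y-linked range.

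Axin2, which is induced by canonical WNT signalling and feeds back to limit it, was highest in day 25 dKO. Its values were 301 and 225 in wild type, 406 and 618 in day 25 dKO, and 322 and 391 at 2 months. The 3 groups did not overlap, with the 2-month arrays between the others. The second Axin2 probe set stayed between 12 and 15. Lef1, a nuclear partner of beta-catenin, was 151 and 103, then 152 and 165, then 117 and 161. Its day 25 dKO arrays were just above wild type and its 2-month values overlapped both groups.

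For dKO against wild type at day 25, which compares the genotypes at a matched age, Axin2 and Wnt5a were higher and Fzd2 was lower in the dKO before correction for multiple tests. The log2 difference was 0.94 ± 0.27 (SE) for Axin2, a 1.92-fold difference (limma adjusted p = 0.549). For Wnt5a it was 0.89 ± 0.33 (adjusted p = 0.604), and for Fzd2 it was -1.06 ± 0.32, or 2.08-fold lower (adjusted p = 0.555). With arrays left out in turn Wnt5a ranged from 0.42, without dKO day 25 replicate 2, to 1.35, without replicate 1, and Fzd2 from -1.41, without replicate 2, to -0.70, without replicate 1. The unadjusted p of Wnt5a was above 0.05 with a pseudocount of 16, with only the 4 arrays compared and with its probe sets averaged. These 3 of 44 members, 2 higher and 1 lower, were at an unadjusted p under 0.05, where 4.89% of all genes were higher and 3.44% lower, so the family's share of 6.82% was near that of all genes (8.33%). By limma 0 members and 0 of 45037 probe sets (0%) passed an adjusted p of 0.05. Groups did not overlap for 9 members with higher and 4 with lower dKO values, against 26.4% and 19.5% of all genes. The count of 3 was 5 without either 2-month array, which enter only through the pooled spread, 1 without dKO day 25 replicate 2 and 0 without wild-type replicate 2.

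By role and the sign of the fitted difference, 14 of 19 ligands were counted as higher and 5 as lower in the dKO. Of 10 Frizzleds 4 were higher and 6 lower, and of 10 antagonists 6 were higher and 4 lower. The lower ligands take in Wnt3, with a mean of 10.5 in both groups. The higher antagonists take in Wif1, at 9 on every array, so neither of these genes differed. Both co-receptors and both of Axin2 and Lef1 were counted as higher, although Lrp5 had a mean of 151 in both groups and a log2 difference of 0.0014. Over all genes 10083 of 18193 had higher and 7991 lower means. With each array left out in turn an unadjusted p under 0.05 held in 4 of 6 fits for Axin2, 3 of 6 for Fzd2 and 1 of 6 for Wnt5a. The 6 include the fits without a 2-month array, which is not in this comparison. For Axin2 it was lost without dKO day 25 replicate 2 and without wild-type replicate 2. For Fzd2 it was lost without dKO day 25 replicate 1 and without either wild-type array. The family's median log2 difference was 0.04, beside 0.03 over all genes, and it was 0.09 and 0.0046 when wild-type replicates 1 and 2 were left out in turn, and 0.02 when dKO day 25 replicate 2 was. Stromal markers were higher in the dKO for 14 of 14, endothelial for 12 of 12, leukocyte for 9 of 10 and oocyte for 12 of 12, and their part in the values of Axin2, Wnt5a and Fzd2 was not tested.

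Between day 25 and 2 months in the dKO, Sfrp4 was higher and Wnt4 lower at the later age. Sfrp4 had a log2 difference of 1.24 ± 0.30 (SE), or 2.37-fold (limma adjusted p = 0.712), which was 0.81 without 2-month replicate 2 and 1.68 without replicate 1. Wnt4 had -1.12 ± 0.55 (adjusted p = 0.712) and was not at an unadjusted p under 0.05. It was -0.40 without dKO day 25 replicate 2, the higher of its group, and -1.83 without replicate 1, so its size rests on which of these arrays is kept. Fzd8 had 0.72 ± 0.33 and Axin2 -0.50 ± 0.27, both without overlap of the groups. Sfrp4, Sfrp2 and Fzd10 were the 3 members at an unadjusted p under 0.05, all higher, against 3.73% higher and 2.91% lower over all genes, and 0 members and 0% of probe sets passed after adjustment. Groups did not overlap for 8 members with higher and 4 with lower values, against 19.7% and 17.0% of all genes.

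By role, 8 of 10 Frizzleds and 8 of 10 antagonists had higher means at 2 months, Wif1 being equal. Of 19 ligands 10 were higher and 8 lower. Over all genes 9645 of 18193 were higher and 8398 lower. Of the 10 antagonists 6, Wif1 among them, stayed under 100 on all arrays. The family's median was 0.08 and that of all genes 0.02, and the family's was 0.01 without dKO day 25 replicate 1, 0.05 without 2-month replicate 1 and 0.13 without dKO day 25 replicate 2. The count of 3 was 5 without 2-month replicate 1 and 9 without replicate 2. Leukocyte markers were higher for 10 of 10 and endothelial markers for 12 of 12, whereas 12 of 12 oocyte markers were lower, and what these cells add to the Frizzled and antagonist values was not tested.

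For dKO at 2 months against wild type at day 25, which shares its groups with both comparisons above and differs in genotype and age together, ligands and antagonists had the largest differences. Sfrp4, Wnt5a and Wnt6 were higher and Wnt4 was lower in the older dKO. The log2 difference was 1.28 ± 0.30 (SE) for Sfrp4, 2.42-fold (limma adjusted p = 0.269), 1.26 ± 0.33 for Wnt5a, 2.40-fold (adjusted p = 0.295), and 0.98 ± 0.29 for Wnt6, 1.98-fold (adjusted p = 0.323). Wnt4 had -1.67 ± 0.55, or 3.19-fold lower (adjusted p = 0.349), and its second probe set had -1.55. The second Wnt6 probe set had 0.71, with an unadjusted limma p of 0.113. With each array left out in turn Wnt4 kept its sign, between -2.11 and -1.24, and Sfrp4 ranged from 0.84 without 2-month replicate 2 to 1.71 without replicate 1. An unadjusted p under 0.05 held in 5 of these 6 fits for Sfrp4, 3 for Wnt5a, 2 for Wnt6 and 2 for Wnt4. For Wnt4 and Wnt6 it held only without a day 25 dKO array, which is not in this comparison, and was lost without any 1 of the 4 arrays compared. Frzb had -1.22 ± 0.56 (adjusted p = 0.427) without overlap of the groups. The dim antagonists Dkk2 and Sfrp2 had 0.49 ± 0.12 and 0.35 ± 0.09, at intensities where a change of a few units gives such values.

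An unadjusted p under 0.05 was found in that comparison for 5 members with higher and 1 with lower values, against 9.54% and 5.38% of all genes. The family's share was 13.6% and that of all genes 14.9%, so the count was near the background, and it was 1 without wild-type replicate 2. By limma 0 members and 0% of probe sets passed after adjustment. Groups did not overlap for 11 members with higher and 5 with lower values, against 26.6% and 17.3% of all genes. By the sign of the fitted difference 33 of 44 members were counted as higher in the older dKO. Among them were 9 of 10 antagonists and 8 of 10 Frizzleds. Both the 33 and the 9 take in Wif1, which was 9 on every array and so did not differ. Over all genes 10086 of 18193 were higher and 8036 lower. The family's median was 0.15 against 0.04 over all genes, or 0.07 without 2-month replicate 1. Differences of at least 2-fold on the log2 scale were seen for 4 members, Sfrp4, Wnt5a, Frzb and Wnt4, which is 9.09% of members and compares with 5.21% of all genes. Summed luteal markers, of which 2 of 5 were higher, were 6109 and 5677 in wild type and 8611 and 9635 in 2-month dKO. Most of each luteal sum was Scarb1 alone, at 5185 and 4599 in wild type and 7033 and 8091 in 2-month dKO. Surface epithelium markers, of which 7 of 9 were higher, summed to 3346 and 3009 against 5303 and 4268. Leukocyte markers were higher for 10 of 10, endothelial for 12 of 12, stromal for 12 of 14 and theca markers for 6 of 7, and oocyte markers were higher for 0 of 12. Summed theca markers were 21221 and 24282 in wild type, 16325 and 30035 in day 25 dKO, and 46969 and 38320 in 2-month dKO, with the androgen enzyme gene Cyp17a1 at 1275 and 1509, then 389 and 5073, then 12804 and 15028. The part of these cells in the members' values was not tested.

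**Figure D3:**
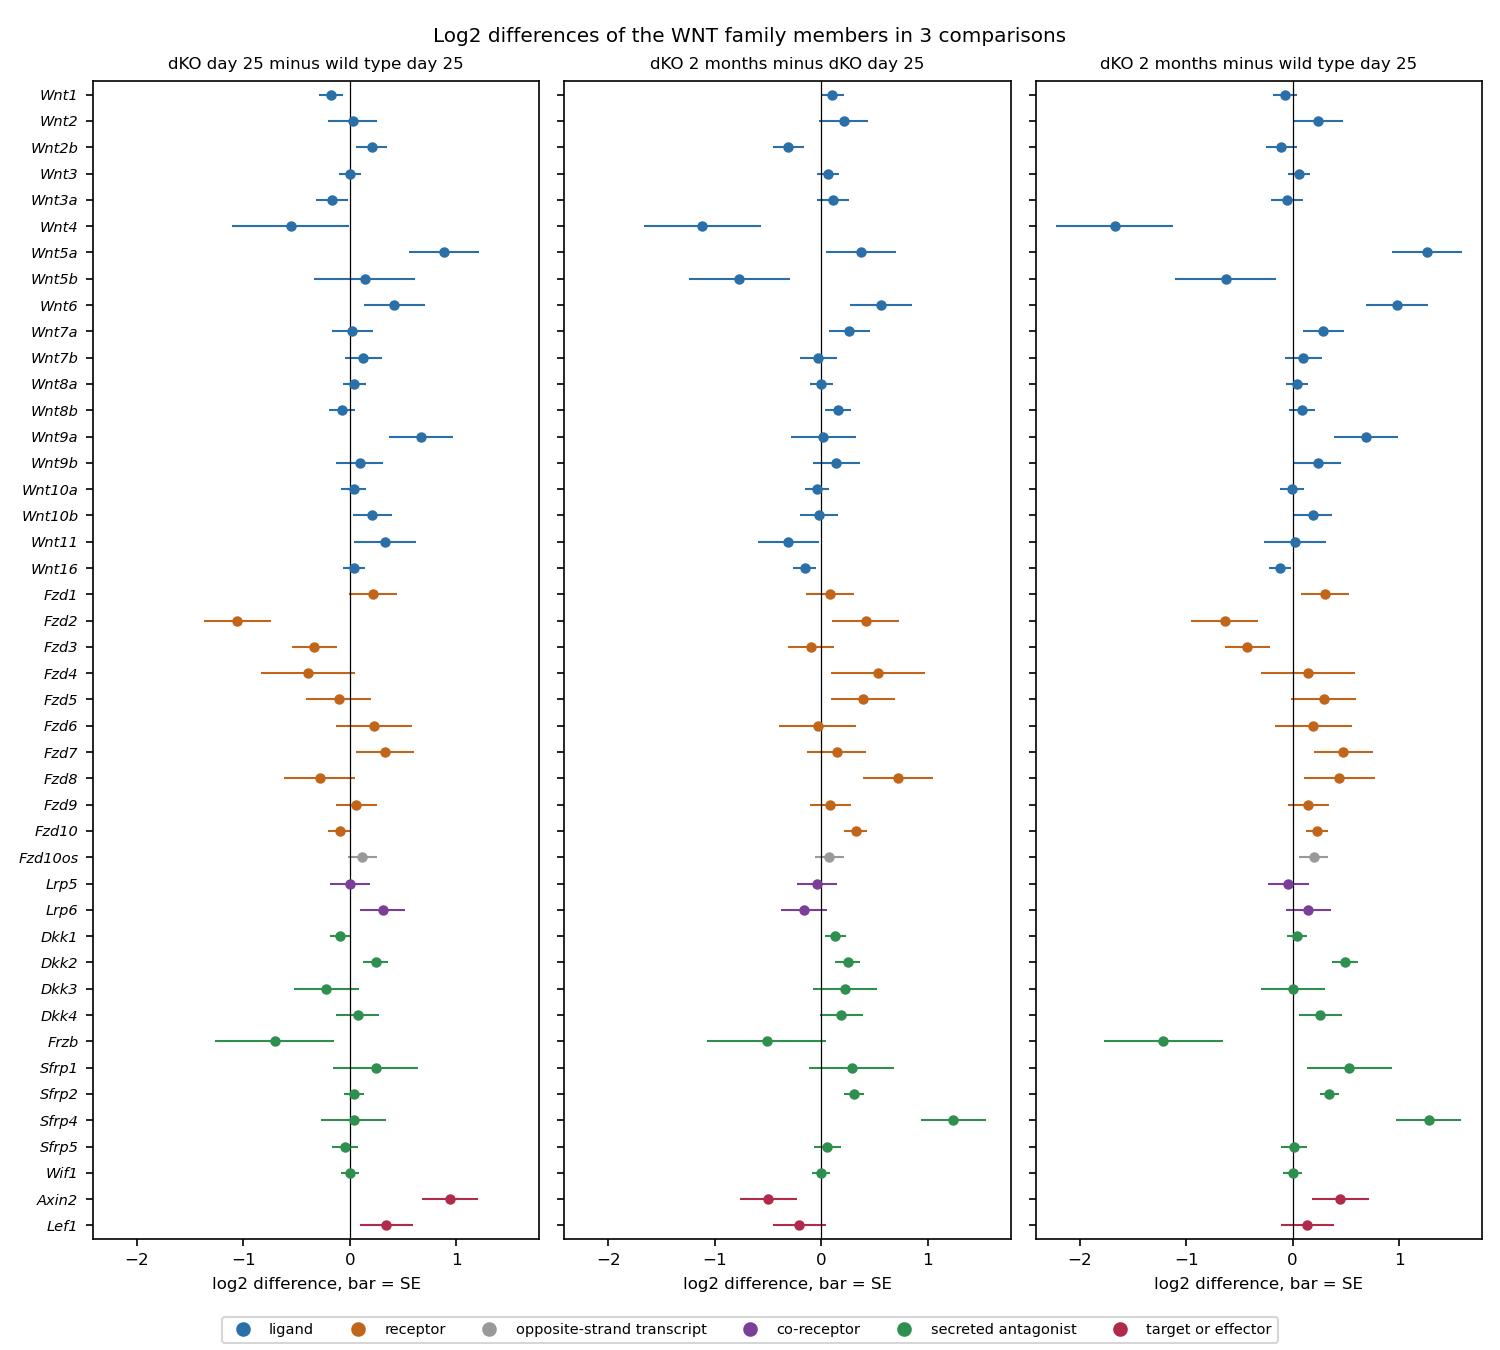
Log2 difference with its standard error for all 44 members in the 3 comparisons, coloured by role, with 2 arrays a group. The points more than 1 log2 unit from 0 are Wnt4 (-1.67), Sfrp4 (1.28), Wnt5a (1.26) and Frzb (-1.22) for dKO at 2 months against wild type, Sfrp4 (1.24) and Wnt4 (-1.12) between the dKO ages, and Fzd2 (-1.06) at day 25.

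Replicates of 1 group differed widely for several members. Between the day 25 dKO arrays 11 of 44 members were over 1.5-fold apart, among them Wnt4, Wnt5a, Wnt5b, Wnt6, Wnt9a, Fzd2, Frzb and Axin2, against 6.93% of all genes. In wild type 5 members (11.4%) were, against 7.74% of all genes, and at 2 months 8 members (18.2%), against 19.3%. Of the members, 12 had their highest value on 2-month replicate 2 (27.3%), where 12.3% of all genes were highest. A further 11 were highest on replicate 1 (against 28.9% of all genes), including Fzd1, Fzd4, Fzd5, Fzd7, Fzd8 and Sfrp1. Sfrp4, Wnt5a and Wnt6 were among those highest on replicate 2.

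The rest of the WNT pathway was read from a list of 90 symbols, of which 85 genes were measured. At day 25, 6 had higher and 4 had lower dKO values with an unadjusted p under 0.05. Between the dKO ages 3 were higher and 3 lower, and for the older dKO against wild type 13 were higher and 6 lower. The share was 22.4% in the last comparison, beside 14.9% over all genes, and 11.8% and 7.06% in the others, beside 8.33% and 6.64%. Such shares are larger among brighter genes. Over all genes with a group mean of at least 100 they were 18.7% in the last comparison, 10.9% at day 25 and 7.36% between the dKO ages. None passed after adjustment over all probe sets in limma. The list was chosen with earlier results of these data known.

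Genes of WNT secretion and of the cell surface had 7 of 18 members with an unadjusted p under 0.05, 6 higher and 1 lower, for the 2-month dKO against wild type, beside 9.54% higher and 5.38% lower over all genes. At day 25, 2 of the 18 had higher and 1 had lower dKO values, beside 4.89% and 3.44%. Tpbg, a surface glycoprotein that modulates WNT reception, was 699 and 856 in wild type, 475 and 401 in day 25 dKO, and 336 and 281 at 2 months, a log2 difference of -1.33 ± 0.17 (SE) for 2 months against wild type (limma adjusted p = 0.150). Rnf43, a ubiquitin ligase that removes Frizzleds from the surface, was 63 and 38, then 95 and 88, then 97 and 109, so all dKO arrays were above wild type. Others were singled out after their values were seen. Wls, the carrier that brings WNT proteins to the surface, was 1098 and 958, then 1707 and 1516, then 2963 and 1559. Porcn, the enzyme that adds their lipid, was 124 and 108, then 190 and 164, then 293 and 170. Lgr6, an R-spondin receptor, was 692 and 425, then 3520 and 1103, then 2822 and 1660, which is 3.63-fold higher in dKO at day 25 (adjusted p = 0.581). Rspo1 and Gpc4 were the other genes counted as higher.

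Genes acting in the nucleus went in both directions. Tle1, a corepressor that binds TCF factors, was 917 and 1025 in wild type, 496 and 579 in day 25 dKO, and 501 and 373 at 2 months. Tcf7l2, a TCF factor, was 693 and 559, then 337 and 445, then 413 and 301. In both genes every dKO array was below both wild-type arrays. Tle2, a corepressor of the same family as Tle1, ran the other way at 313 and 414, then 856 and 727, then 2249 and 865, a log2 difference of 1.95 ± 0.48 (SE) for 2 months against wild type (limma adjusted p = 0.279). Tcf7l2 and Tle2 were chosen after their values were seen, as was Amer1, an APC-binding protein of the cytoplasm at 300 and 277, then 418 and 335, then 403 and 386. Csnk1e, a kinase acting on Dishevelled, was 1040 and 1247 in day 25 dKO and 615 and 846 at 2 months. Of 21 cytoplasmic genes only Amer1 had an unadjusted p under 0.05 at day 25, which is 4.76% beside 8.33% over all genes. Of 18 genes of the beta-catenin-independent branch 0 had one in limma in any comparison, where all genes gave 8.33% at day 25, 6.64% between the dKO ages and 14.9% for the older dKO against wild type.

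Genes reported elsewhere as targets of canonical signalling went in both directions. Nkd1, an inhibitor of Dishevelled that like Axin2 is induced by the pathway, was 316 and 269 in wild type, 406 and 612 in day 25 dKO, and 369 and 329 at 2 months, the order also seen for Axin2. Cd44, a hyaluronan receptor, was 85 and 74, then 102 and 116, then 200 and 221, a difference of 1.40 ± 0.13 (SE, log2) for 2 months against wild type (limma adjusted p = 0.138). Leukocytes express Cd44 as well, and their part in its values was not tested. Summed leukocyte markers were 1479 and 2888 in wild type, 7528 and 4145 in day 25 dKO, and 13934 and 4458 in 2-month dKO. Ccnd1, a D cyclin, was 83 and 106, then 124 and 161, then 192 and 163. Myc, a growth regulator, was 1425 and 1102, then 547 and 711, then 235 and 488, so it ran against Ccnd1. Jun, an AP-1 subunit, was 1077 and 1574, then 650 and 422, then 2098 and 1865, lowest in day 25 dKO and highest at 2 months. Id2, a dominant-negative helix-loop-helix factor, was 1410 and 2006, then 835 and 1190, then 3957 and 1865. Of 15 measured targets 5 were higher and 2 lower for the older dKO against wild type at an unadjusted p under 0.05, which is 46.7% beside 14.9% over all genes. At day 25 the count was 3 higher and 1 lower (26.7% beside 8.33%), and between the dKO ages it was 3 higher and 0 lower (beside 3.73% and 2.91% over all genes). This list was also chosen with earlier results known. Twist1, a mesenchymal transcription factor, was 38 and 32, then 40 and 48, then 62 and 53, with the 3 groups separate and a log2 difference of 0.70 ± 0.16 (SE) for 2 months against wild type (limma adjusted p = 0.261). Sost, a secreted LRP antagonist counted with the surface genes, was 46 and 39, then 54 and 53, then 35 and 44, highest in day 25 dKO.

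**Figure D4:**
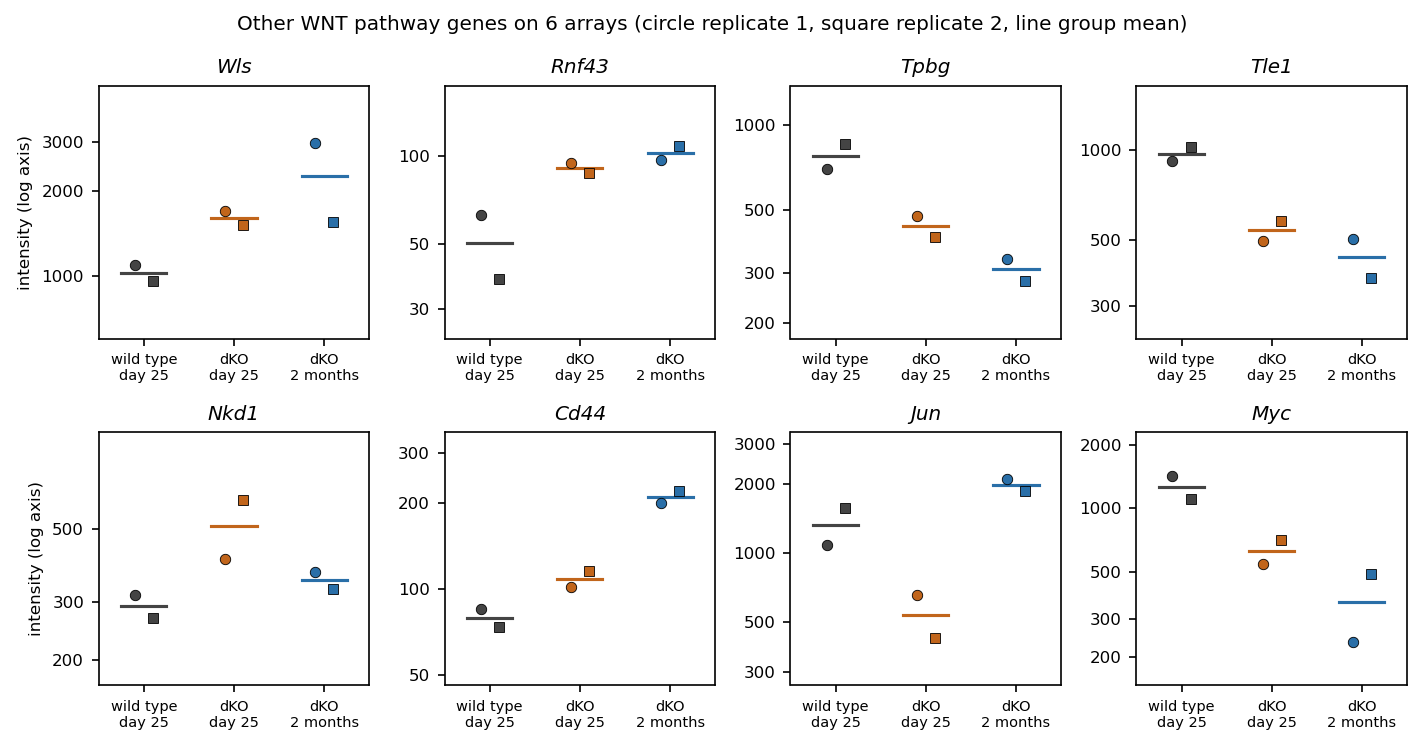
Intensity (log axis) of 8 other WNT pathway genes on the 6 arrays, drawn as for the family members. Tpbg, Tle1 and Myc are lower on all 4 dKO arrays than on both wild-type arrays, Wls, Rnf43 and Cd44 are higher, Nkd1 is highest in day 25 dKO (406 and 612), and Jun is lowest there (650 and 422).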

How the data were processed

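Total RNA was measured on 1 array a sample. The deposited intensity values, which the submitters' processing notes say the authors made using the affy package and the RMA method, are linear whole numbers; versions and the genome build are not given in the sources used here. RMA gives all arrays nearly the same distribution (median 73 or 74), so a shift of most genes would not be seen.

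Values were analysed as log2(value + 1), which understates folds of dim genes. Of 45101 probe sets 64 controls were left out. Symbols came from the platform annotation, which gave 34945 probe sets a single symbol, 932 several and 9160 none, and all 44 members matched RefSeq gene IDs. R 4.3.3 with limma 3.58.1 fitted 1 mean per group over 6 arrays (3 residual degrees of freedom), with two-sided tests and Benjamini-Hochberg adjustment over 45037 probe sets, and the fit was tested on simulated data. Fold changes are on the log2(value + 1) scale. The labels do not say that replicates come from separate animals, and the p-values then reflect no more than the spread of these samples, which may be technical. The number of arrays limits the precision, and an exact permutation test of 2 against 2 cannot go below p = 0.333.

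All 6 values are printed for members at an unadjusted p under 0.05, for those with separate groups, a log2 difference of at least 0.58 and a group mean of at least 100, and for Wnt4, Wnt2, Fzd1, Fzd4, Sfrp4, Axin2, Lef1, Lrp5 and Lrp6. From the other pathway genes up to 6 of smallest p per comparison are named. The members and lists were chosen with earlier results of these data known. Promoter windows are RefSeq's on GRCm38.p6, which is not stated to be the arrays' build.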

Additional observations from a re-analysis of the deposited data

How the results depend on the processing

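Across the alternatives run, 0 of 44 members passed an adjusted p of 0.05 in limma in any comparison. With probe sets under 100 left out, 23 members remained. Of these, 8 had groups that did not overlap at day 25 and 5 between the dKO ages, 1 was at an unadjusted p under 0.05 between the dKO ages, and the median log2 difference at day 25 was 0.127. Over all genes with a group mean of at least 100, 55.0% and 40.2% had groups that did not overlap and 7.36% had such a p between the dKO ages. Among the 23 members the shares were 34.8%, 21.7% and 4.35% in that order, and among all 44 they were 29.5%, 27.3% and 6.82%. With only the 4 arrays compared, 5 members were at an unadjusted p under 0.05 at day 25. When a gene's probe sets were averaged, the median for the 2-month dKO against wild type was 0.0891. With arrays left out in turn, members at an unadjusted p under 0.05 numbered 0 to 5 at day 25, 2 to 9 between the dKO ages and 1 to 8 for the older dKO against wild type. Groups did not overlap for 13 to 29, 12 to 30 and 16 to 31 members in the same order, partly because 1 array against 2 overlaps less often. The medians ranged from 0.0046 to 0.0871, from 0.0125 to 0.126 and from 0.0746 to 0.146. The sign of a difference could also turn on 1 array. Fzd4 for the 2-month dKO against wild type was -0.52 without 2-month replicate 1, and over the arrays left out it ranged from -0.52 to 0.82. Wnt4 for dKO against wild type at day 25 was -0.56 with all arrays and 0.16 without dKO day 25 replicate 1. The causes were not tested. The replicate numbers share only a number, and with them as a replicate block the counts at an unadjusted p under 0.05 were 3, 4 and 7. Replicate differences in wild type correlated at -0.159 and -0.208 with those in the dKO groups, and with the wild-type numbers crossed, an alternative added after seeing the data, the counts were 4, 4 and 7.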
